A study of Mus musculus with 6 samples.

Results

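The gene set examined consisted of 5 genes that are used as markers of the horizontal cells of the retina, Lhx1, Onecut1, Onecut2, Prox1 and Calb1, chosen by symbol from the 24062 genes of the count table. Each of the 5 was found, and each was among the 16904 genes tested. RNA was sequenced from whole mouse retinae (C57BL/6N in the methods of the study, C57BL/6 in the labels) at postnatal day 21 (P21), with 3 retinae of the triple knockout Rb1/p107/Hells (TKO) and 3 of the double knockout Rb1/p107 (DKO). In both genotypes the Chx10-Cre transgene removes a floxed Rb1 gene on a p107-/- background, and TKO retinae also carry floxed Hells, which encodes a chromatin remodeling helicase. Chx10-Cre is expressed in only part of the retinal progenitors, so unrecombined cells remain in each retina, and Cre-negative or wild-type retinae were not analysed here. The labels do not say whether the 3 retinae of a genotype came from different mice, and p-values then measure only the spread between these retinae.

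Horizontal cells are the interneurons of the outer retina that receive glutamate from photoreceptors and feed inhibition back onto them and onto bipolar cells. They are born early from retinal progenitors. The forkhead factor Foxn4 and the bHLH factor Ptf1a direct progenitors to the horizontal and amacrine fates. The LIM-homeodomain factor Lhx1 follows in the cells as they migrate and settle in their layer. Horizontal cells are also the retinal neurons best known for dividing again after differentiation when the Rb family is lost in mice.

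The question was whether markers of horizontal cells differed between retinae with and without the Hells deletion on the Rb1/p107-null background. Lhx1, Onecut1 and Onecut2, which encode transcription factors, had lower mean levels in TKO than in DKO retinae, with log2 fold changes of -0.87, -1.24 and -0.70. The transcription factor gene Prox1 and the calbindin gene Calb1, which are also made by other retinal neurons, were at 0.020 and 0.092. Whether other retinal cells also make Lhx1, Onecut1 or Onecut2 was not examined here. In edgeR's quasi-likelihood test, adjusted by Benjamini-Hochberg, 0 of the 5 genes reached an adjusted p of 0.05 or less, against 16.6% of all genes tested (9.2% lower and 7.35% higher in TKO). The adjusted p-value of Onecut1, 0.0511 from edgeR, lay at the threshold, and the values of Lhx1 and Onecut2 depended on the third TKO retina. In whole retinae, fewer cells of a type and less RNA per cell cannot be told apart.

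The libraries held from 10343907 to 14203098 counts on genes, and where a count is 0 the limit used is 3 counts, for counting error only. Hells had from 60.8 to 83.4 normalized counts in TKO and from 395 to 678 in DKO retinae, and each library followed its label. Normalized counts are raw counts rescaled by TMM to a common library size. These counts cover the whole gene and do not read the deleted exon 12 alone. The log2 fold change of Hells, -2.91, lay within that of 8 dividing-cell genes, -3.21 to -2.12, and the deletion itself was not tested. Summed markers of other cells differed between the genotypes as well. The 8 dividing-cell genes summed to 52.3, 97.2 and 205 CPM (counts scaled to a common library total after TMM correction of the library sizes) in TKO replicates 1, 2 and 3 and to 948, 745 and 477 in DKO replicates 1, 2 and 3. The 10 rod genes summed to between 28238.5 and 57034 CPM in TKO and between 9679.8 and 18375 in DKO retinae. The 8 microglia genes summed to between 98.5 and 180 in TKO and between 240.0 and 345 in DKO retinae, and the 11 lens genes to 297 in TKO replicate 2, 46.9 and 54.2 in the other TKO retinae and at most 11.6 in DKO retinae. No gene of these lists was at 0 in all 6 libraries. TKO replicate 3 and DKO replicate 3 were the retinae closest to the other genotype in the dividing-cell and rod sums.

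Promoter sequence was at hand for Lhx1, Onecut1 and Prox1 among the 5 genes, and those of Lhx1 and Onecut1 are shown because their levels followed each other most closely among the 5 genes across the 6 retinae (Pearson r of 0.94 on log2 CPM, a description over 6 libraries of 2 genotypes). In GRCm38, Lhx1 spans positions 84518284 to 84525535 of chromosome 11 (minus strand), and the 250 bases before its RefSeq start are chr11:84525535-84525784. Onecut1 spans positions 74861921 to 74891781 of chromosome 9 (plus strand), and the same stretch before its start is chr9:74861671-74861920. Both are RefSeq sequence of GRCm38.p6, read 5′ to 3′ on the strand of the gene. Capitals mark the 7 letters TGACGTC, the larger part of a cAMP response element, and CCAAT, the NF-Y box, on either strand.
Lhx1: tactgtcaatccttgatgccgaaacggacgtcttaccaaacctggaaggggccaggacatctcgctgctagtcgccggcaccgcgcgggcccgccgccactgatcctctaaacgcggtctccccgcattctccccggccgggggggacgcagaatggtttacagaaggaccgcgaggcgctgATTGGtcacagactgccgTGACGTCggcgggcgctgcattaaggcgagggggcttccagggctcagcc
Onecut1: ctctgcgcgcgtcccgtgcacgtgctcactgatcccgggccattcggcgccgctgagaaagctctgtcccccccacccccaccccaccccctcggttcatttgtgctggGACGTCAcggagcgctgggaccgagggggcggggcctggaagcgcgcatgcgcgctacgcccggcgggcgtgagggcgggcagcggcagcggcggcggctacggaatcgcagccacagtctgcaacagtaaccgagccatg

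Both windows held TGACGTC once, at 50 to 44 bases before the start of Lhx1 and at 141 to 135 bases before the start of Onecut1. It was found on either strand in 2.78% of 32851 promoter windows of the same length, and it was chosen after the letters had been read. CCAAT was found once, in Lhx1, and in 33.8% of all windows. An E2F site (TTTCCCGC, TTTCGCGC, TTTGCCGC or TTTGGCGC), the kind of element through which the Rb family represses genes, was in neither window and in 1.86% of all windows. The Onecut words ATCAAT and ATCGAT were in neither and in 7.4% of all windows. None of these words overlapped another in the windows shown. A match describes the letters only, and no binding was measured in these data.

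Lhx1, which positions horizontal cells in their layer, had 56.2, 72.6 and 191 normalized counts in the TKO retinae against 230, 209 and 143 in the DKO retinae, listed as replicates 1, 2 and 3. TKO replicates 1 and 2 lay below every DKO retina, whereas TKO replicate 3 lay above DKO replicate 3, so the genotypes overlapped. The means were 106.8 ± 73.8 and 194 ± 45.1 (SD, n = 3 each), which is -0.87 on the log2 scale (SE 0.418, edgeR adjusted p = 0.185), with a 95% interval from -1.83 to 0.088. Without TKO replicate 3 the log2 fold change was -1.58 (edgeR adjusted p = 0.00545), and without TKO replicate 1 it was -0.57 (edgeR adjusted p = 0.402).

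Onecut1 is a cut-homeodomain factor required for the genesis of horizontal cells. It had 29.8, 26.3 and 72.4 normalized counts in the TKO retinae against 114, 95.4 and 92.4 in DKO retinae, in the order of their replicate numbers. Every TKO retina was below every DKO retina, as was the case for 20.6% of all genes tested (18% had the opposite order, and 38.6% did not overlap in either direction). The means were 42.8 ± 25.7 and 101 ± 11.6 (SD, n = 3 each), which is -1.24 on the log2 scale (SE 0.363, edgeR adjusted p = 0.0511), with a 95% interval from -2.07 to -0.41. The counts behind these values were few, from 25 to 59 in the TKO libraries and at most 121 in any DKO library. DESeq2 gave an adjusted p of 0.00826 for Onecut1, and the adjusted p-values over all alternatives ran from 0.00273 (without TKO replicate 3, log2 fold change -1.83) to 0.151 (without TKO replicate 2, log2 fold change -0.98). Of the 4062 distinct 50-base words of the Onecut1 transcripts, 52.3% also occur in transcripts of another gene, chiefly the noncoding gene Gm20649, which is annotated over Onecut1 on the same strand. Gm20649 was not among the genes tested, and how the counting shared such reads is not stated.

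Onecut2, a paralogue of Onecut1 that acts with it in horizontal cell genesis, lies on chromosome 18 from 64340020 to 64400987. It had 139, 92.6 and 191 normalized counts in the TKO retinae against 290, 215 and 180 in the DKO retinae, in the order of their replicate numbers. TKO replicate 3 lay just above DKO replicate 3, and the other values did not overlap. The means were 141 ± 49.4 and 228 ± 56.3 (SD, n = 3 each), which is -0.70 on the log2 scale (SE 0.274, edgeR adjusted p = 0.117), with a 95% interval from -1.33 to -0.071. Without TKO replicate 3 the log2 fold change was -0.98 (edgeR adjusted p = 0.0344), and without TKO replicate 2 it was -0.47 (edgeR adjusted p = 0.286).

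Prox1, a homeodomain factor of horizontal cells that is also made by AII amacrine cells and by the lens, lies on chromosome 1 from 190118035 to 190170714. It had 1921, 1676 and 2051 normalized counts in the TKO retinae against 2052, 1740.5 and 1778 in DKO retinae, in the order of their replicate numbers. The genotypes overlapped through most of their range. The means were 1882 ± 190.5 and 1857 ± 169.9 (SD, n = 3 each), which is 0.020 on the log2 scale (SE 0.103, edgeR adjusted p = 0.913), with a 95% interval from -0.22 to 0.26. Its direction was not fixed by these data, since it was -0.14 with total counts only, -0.012 with upper-quartile scaling and below 0 in 3 of the fits that left out 1 retina. TKO replicate 2, in which the lens genes were highest, had the lowest Prox1 level of the 6 retinae. That is 1 library, and the part of the lens in the Prox1 level was not tested.

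Calb1 encodes calbindin, the calcium buffer by which horizontal cells and a subset of amacrine cells are stained, and lies on chromosome 4 from 15881264 to 15908064. It had 1425, 1476 and 1707 normalized counts in the TKO retinae against 1476, 1492 and 1356 in the DKO retinae, in the order of their replicate numbers. TKO replicate 3 was the highest and DKO replicate 3 the lowest of the 6 retinae. The means were 1536 ± 150.2 and 1441 ± 74.0 (SD, n = 3 each), which is 0.092 on the log2 scale (SE 0.0912, edgeR adjusted p = 0.521), with a 95% interval from -0.12 to 0.30. With total counts only, the value was -0.063. With TMM scaling, a fall of Calb1 by more than 0.12 or a rise by more than 0.30 on the log2 scale lay outside the 95% interval. That interval does not cover the choice of scaling.

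**Figure D1:**
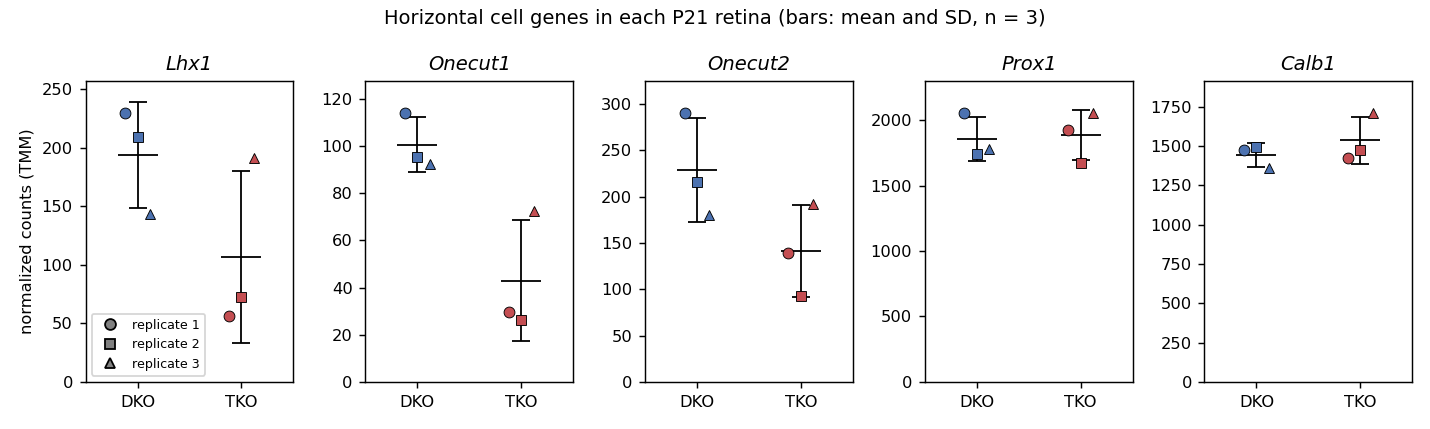
Normalized counts of the 5 genes (y axis, TMM-scaled, from 0) in each DKO (blue) and TKO (red) retina, with replicates 1, 2 and 3 as circles, squares and triangles and bars for the mean and SD of 3 retinae. Onecut1 was the gene of the 5 whose genotypes did not overlap (26.3 to 72.4 in TKO, 92.4 to 114 in DKO), and the third TKO retina was the highest TKO value in each panel.

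With the full rule of the study (adjusted p up to 0.05, a log2 fold change of 1 or more in size and a mean of 10 or more normalized counts), 0 of the 5 genes were called with edgeR, where 6.35% of all genes tested were called with 4.38% lower and 1.97% higher in TKO. Unadjusted p-values under 0.05 were reached by 2 of the 5 genes, Onecut1 and Onecut2, against 33.1% of all genes tested. DESeq2 called 1 gene, Onecut1. Without TKO replicate 3, edgeR called Lhx1 and Onecut1, in a fit that called 1500 genes in place of 1074. Thus the adjusted p of Lhx1, Onecut1 and Onecut2 was under 0.05 when that retina was left out and, for Lhx1 and Onecut2, in none of the other alternatives.

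**Figure D2:**
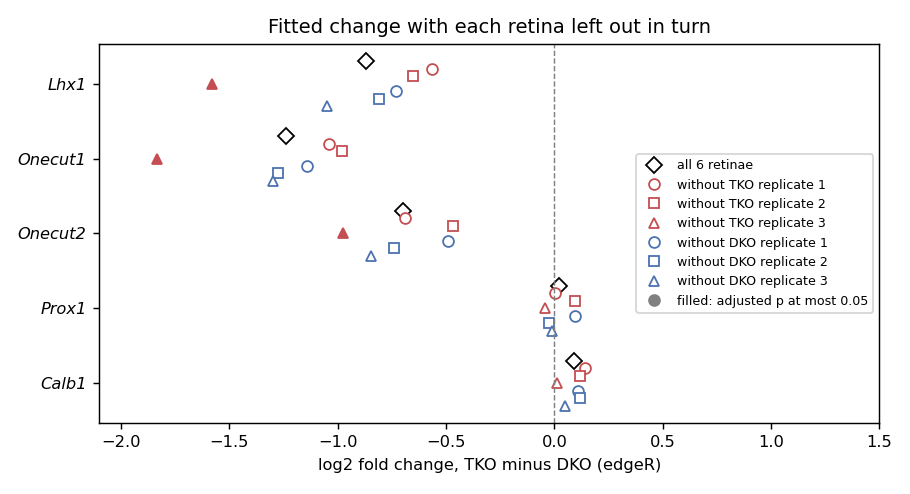
Fitted log2 fold change (x axis, TKO minus DKO, edgeR) of the 5 genes with all 6 retinae (open black diamonds) and with each TKO (red) or DKO (blue) retina left out, filled where the adjusted p was at most 0.05. The filled symbols are the fits without TKO replicate 3, at -1.58 for Lhx1, -1.83 for Onecut1 and -0.98 for Onecut2, and Prox1 and Calb1 stay between -0.041 and 0.14.

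The genes were also set against each other within a library, where no scaling enters. Onecut1 had 2.09, 1.78 and 4.24 counts for each 100 counts of Calb1 in TKO replicates 1, 2 and 3 and 7.72, 6.40 and 6.81 in DKO replicates 1, 2 and 3. Onecut2 had 9.73, 6.28 and 11.2 counts for each 100 of Calb1 in TKO and 19.6, 14.4 and 13.2 in DKO retinae. For both ratios the genotypes did not overlap, and in level 38.6% of all genes tested did not overlap. The Onecut2 level itself overlapped. Its ratio also reflects Calb1, which was highest in TKO replicate 3 and lowest in DKO replicate 3. Lhx1 had 3.94, 4.92 and 11.2 counts for each 100 of Calb1 in TKO and 15.6, 14.03 and 10.6 in DKO retinae, and here TKO replicate 3 exceeded DKO replicate 3. Prox1 had from 114 to 135 counts for each 100 of Calb1 in TKO and from 117 to 139 in DKO retinae, which overlapped. These ratios were given as values and were not tested.

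**Figure D3:**
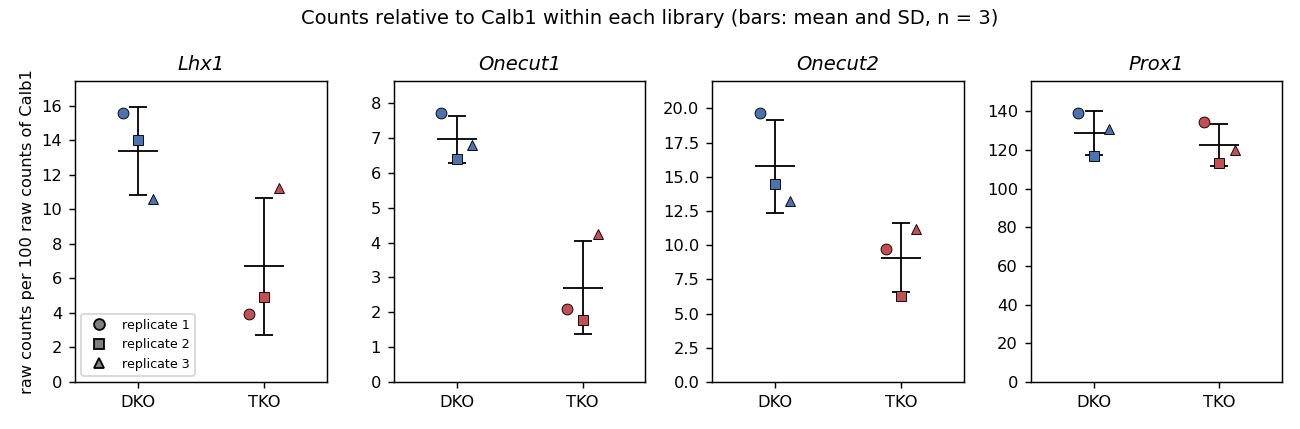
Raw counts of Lhx1, Onecut1, Onecut2 and Prox1 for each 100 raw counts of Calb1 (y axis, from 0) in each DKO (blue) and TKO (red) retina, with bars for the mean and SD of 3 retinae. The mean ratio of Onecut1 was 2.71 in TKO and 6.97 in DKO retinae, and that of Prox1 was 123 and 129.

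To compare levels between genes, CPM values were divided by the exon length in kilobases. On this scale Calb1 was the highest of the 5 genes, at 25.1 ± 2.45 in the TKO and 23.5 ± 1.21 in the DKO retinae (SD, n = 3 each). Prox1 followed, at 17.7 ± 1.79 and 17.5 ± 1.60, and in each retina it was below Calb1. Lhx1 was at 2.07 ± 1.43 in TKO and 3.77 ± 0.876 in DKO retinae. Onecut1 was at 0.823 ± 0.493 and 1.93 ± 0.223, and Onecut2, whose exons are the longest of the 5 genes at 16.23 kb, at 0.686 ± 0.241 and 1.11 ± 0.274. In TKO retinae the levels of Onecut1 and Onecut2 differed by less than their spread, while in DKO retinae the lowest Onecut1 level, 1.78, was above the highest Onecut2 level, 1.41. That order rests on the length of all annotated exons. It is less certain because 52.3% of the 50-base words of Onecut1 also occur in another gene. Prox1 and Calb1 were the most abundant of the set.

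Of 7 further factors listed here for horizontal cell fate, 2 fell in TKO retinae and 5 did not pass the test. Of all genes tested, 9.2% fell. The median log2 fold change of the list was -0.39, or -0.011 over all genes tested. The list includes Isl1, whose expression in mouse horizontal cells was not examined here. Foxn4 fell, with 17.2, 21.0 and 61.4 normalized counts in the TKO retinae against 340, 262 and 142 in the DKO retinae. The genotypes did not overlap, and the log2 fold change was -2.91 (standard error 0.487, edgeR adjusted p = 0.00926). Ptf1a, which acts downstream of Foxn4, was at 0 in the 3 TKO libraries and had 10, 15 and 9 counts in the DKO libraries. It was at least 2.74-fold lower in TKO retinae against a limit of 3 counts in a library (edgeR adjusted p = 0.0125). With Ptf1a at that bound the median of the list was also -0.39. The counts of Ptf1a were few, its mean was under the minimum of the full rule, and its adjusted p from edgeR was 0.0515 without DKO replicate 1 and 0.0565 without DKO replicate 2, while that of Foxn4 was at most 0.0480 when 1 retina was left out. Without TKO replicate 3 the log2 fold change of Foxn4 was -3.68.

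Onecut3, the third Onecut paralogue, had 58.5, 71.6 and 114 normalized counts in the TKO retinae against 137, 185 and 111 in the DKO retinae, which is -0.83 on the log2 scale (edgeR adjusted p = 0.0818). As for Lhx1 and Onecut2, TKO replicate 3 exceeded DKO replicate 3. The AP-2 factors Tfap2a and Tfap2b, which are shared by horizontal and amacrine cells, had log2 fold changes of -0.26 and -0.39 (edgeR adjusted p = 0.207 and 0.0860). Sall3 and Isl1 were at 0.22 and 0.031 (edgeR adjusted p = 0.455 and 0.901), and the direction of Isl1 turned with the scaling. DESeq2 gave adjusted p-values of 0.0354 for Onecut3 and 0.0398 for Tfap2b.

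Of 11 genes of mature horizontal cells, most of them shared with other neurons, 2 fell, 2 rose and 7 did not pass the test, where 9.2% of all genes tested fell and 7.35% rose, and none reached a log2 fold change of 1 in either direction. The median log2 fold change was -0.15. Gja10, which encodes the connexin of horizontal cell gap junctions, had 31.0, 56.8 and 90.8 normalized counts in the TKO retinae against 64.9, 84.0 and 60.4 in DKO retinae. Its genotypes overlapped, and its log2 fold change of -0.23 had a wide 95% interval, from -1.05 to 0.58. The bicarbonate exchanger gene Slc4a3 was at -0.15 and the inhibitory vesicular transporter gene Slc32a1 at -0.23 (edgeR adjusted p = 0.569 and 0.356).

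The 2 genes of this list that fell were Megf11, a cell-surface receptor for the spacing of horizontal and starburst amacrine cells, and the receptor tyrosine kinase gene Ret. Megf11 had 469 ± 19.0 normalized counts in the TKO retinae against 640 ± 31.4 in DKO retinae (SD, n = 3 each), which is -0.45 on the log2 scale (edgeR adjusted p = 0.0129). Its adjusted p was above 0.05 in 3 of the 6 fits with 1 retina left out (edgeR, 0.0664 with TKO replicate 2 omitted, 0.0515 with DKO replicate 1 omitted, 0.0623 with DKO replicate 2 omitted). The related receptor gene Megf10 had the like value of -0.44 with more spread (edgeR adjusted p = 0.0975). Ret had 1554, 1565 and 1975 normalized counts in the TKO retinae against 2113, 2248 and 2276 in the DKO retinae, which is -0.38 on the log2 scale (edgeR adjusted p = 0.0438). When 1 retina was left out, the adjusted p of Ret rose above 0.05 in 5 of the 6 fits, to at most 0.154.

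The 2 genes that rose were Nefh and Sept4. Nefh encodes the heavy neurofilament chain of horizontal and ganglion cell axons, and had 2819 ± 132 normalized counts in the TKO retinae against 2012 ± 254 in the DKO retinae, which is 0.49 on the log2 scale (edgeR adjusted p = 0.0179). When 1 retina was left out, the adjusted p of Nefh from edgeR was 0.0624 with TKO replicate 2 omitted, 0.0599 with DKO replicate 1 omitted, 0.0782 with DKO replicate 2 omitted and under 0.05 in the other 3 fits. The light and medium chain genes, Nefl and Nefm, whose annotated exons overlap on opposite strands, were at 0.22 and 0.20 (edgeR adjusted p = 0.333 and 0.253). The septin gene Sept4 had a log2 fold change of 0.30 (edgeR adjusted p = 0.0449), and its adjusted p was above 0.05 in every fit with 1 retina left out. With total counts only, neither Nefh (0.33, edgeR adjusted p = 0.0617) nor Sept4 (0.14, edgeR adjusted p = 0.308) passed. Atp1b1, a sodium pump subunit, was at 0.11 (edgeR adjusted p = 0.448).

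**Figure D4:**
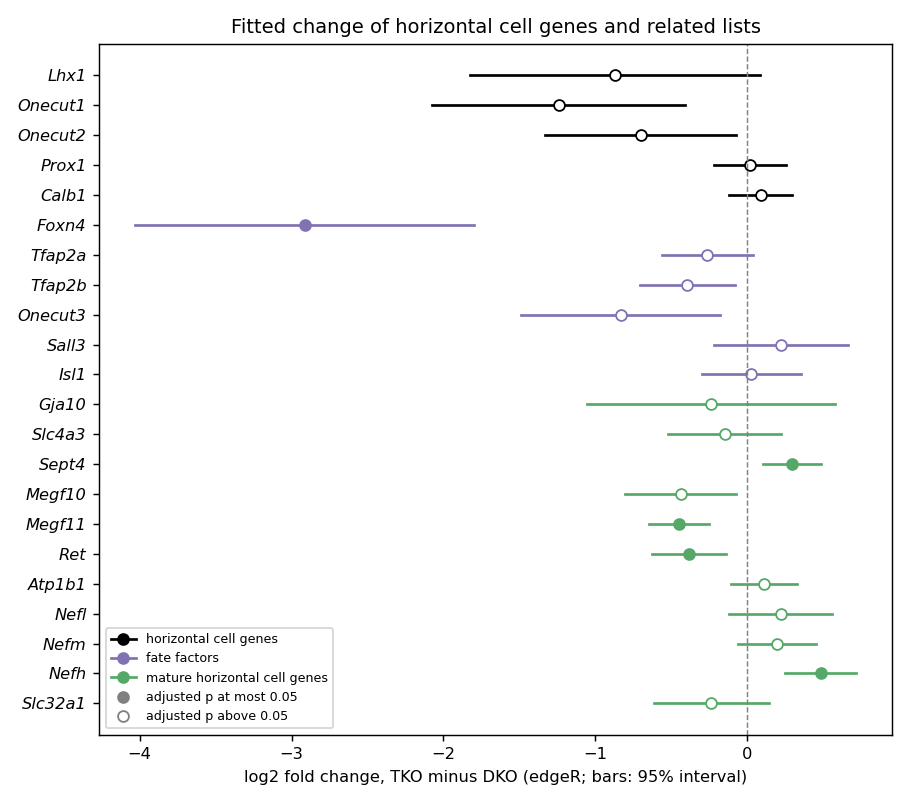
Fitted log2 fold change (x axis, TKO minus DKO, edgeR) with its 95% interval for the 5 genes (black), 6 fate factors (purple) and 11 mature horizontal cell genes (green), filled where the adjusted p was at most 0.05. Foxn4 stands apart at -2.91, and Ptf1a is left out because it was at 0 in the TKO libraries.

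Cells that share these markers were looked at in the same fit, where 9.2% of all genes tested fell and 7.35% rose. Of 16 amacrine genes, 1 fell, the homeobox gene Barhl2 (log2 fold change -0.70, edgeR adjusted p = 0.0116), and 15 did not pass, with a median of 0.025. The summed amacrine level was between 2345 and 2594 CPM in TKO and between 2449 and 2630.2 in DKO retinae. Dab1, an adaptor of AII amacrine cells, which also make Prox1, was at -0.19, the gap junction gene Gjd2 at 0.28 and the glycine transporter gene Slc6a9 at 0.068 (edgeR adjusted p = 0.200, 0.0717 and 0.628). Of 10 ganglion cell genes, 1 fell, Ebf3 (log2 fold change -0.80, edgeR adjusted p = 0.00821), and 9 did not pass, with a median of 0.12. Of 12 bipolar genes, 3 rose, namely Cabp5, Scgn and Grik1 with log2 fold changes of 0.64, 0.52 and 0.41, and the median was 0.41. All 12 were above 0, and 6 were higher in TKO without overlap of the genotypes, as were 18% of all genes tested. The part of other cells in the levels of Prox1 and Calb1 was not tested.

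The order of the 6 retinae was compared with that of the dividing-cell genes. Foxn4 and the dividing-cell sum had the same order, from TKO replicate 1 through TKO replicates 2 and 3 to DKO replicates 3, 2 and 1. Onecut1 had that order with TKO replicates 1 and 2 exchanged. Lhx1 had it with TKO replicate 3 and DKO replicate 3 exchanged, and Onecut2 with both exchanges. Prox1 and Calb1 had other orders. The microglia sum had the dividing-cell order with DKO replicates 1 and 2 exchanged. The rod sum had the reverse of that order, with the same exchange, so the order was not particular to dividing cells. How many of all genes tested had such an order was not counted. All 8 dividing-cell genes fell, where 9.2% of all genes tested fell, and their median log2 fold change was -2.65. The median was -0.70 for the 5 horizontal cell genes, with Prox1 and Calb1 at 0.020 and 0.092, and -0.011 for all genes tested. The part of dividing cells, or of other cells that changed, in the lower Onecut1, Onecut2 and Lhx1 levels was not tested. Across these retinae it cannot be told apart from genotype.

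**Figure D5:**
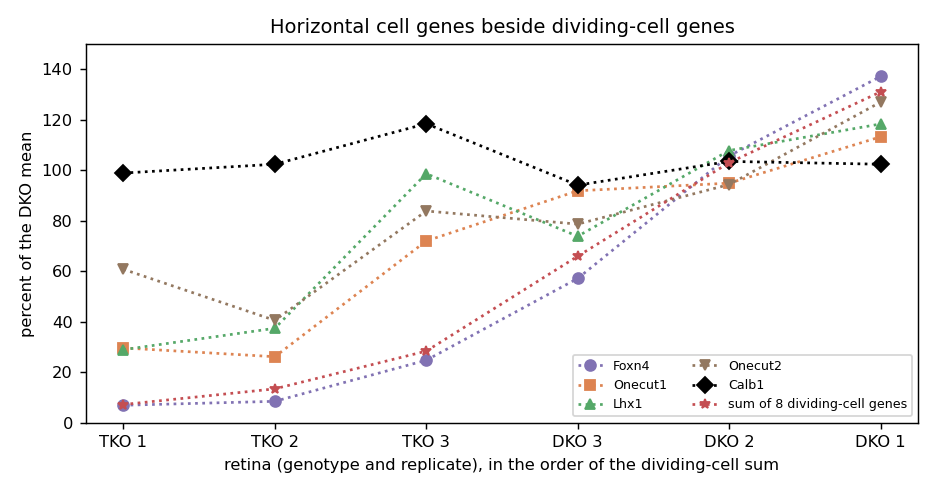
Normalized counts of Foxn4, Onecut1, Lhx1, Onecut2 and Calb1 and the summed level of 8 dividing-cell genes, each as a percent of its DKO mean (y axis, from 0), in the 6 retinae ordered by the dividing-cell sum (x axis). Foxn4 runs with the dividing-cell sum (52.3 to 205 CPM in TKO, 477 to 948 in DKO), Onecut1, Lhx1 and Onecut2 lie above both in the TKO retinae, and Calb1 has no such slope. The microglia sum and, in reverse, the rod sum had nearly the same order and are not drawn.

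Genes with the most similar profile were ranked for each of the 5 genes by Pearson's r of log2 CPM over the 6 libraries, among 14975 other genes. The ranks are a description over 6 points. The closest to Lhx1 was Lhx1os (r of 0.996), the noncoding gene that starts beside it on the opposite strand, with raw counts of 24, 37 and 71 in the TKO libraries against 101, 100 and 76 in the DKO libraries. The annotated exons of Lhx1 and Lhx1os do not overlap. Gm10658 and Npnt followed, both at 0.995. The closest to Onecut1 were Atf5 (0.999), Nckap1l (0.996) and Cadps2 (0.995), and those to Onecut2 were Dnah1 (0.994), Arhgap4 (0.993) and Supt20 (0.992). Pogz and Kcnt1 were among the closest to Prox1 (0.985 and 0.980), and Cav2, Gpr149 and Ppp1r16b came closest to Calb1 (0.985, 0.983 and 0.959).

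Among 59 other horizontal, amacrine, bipolar and ganglion cell genes, Onecut1 was closest to Ret (0.960), Foxn4 (0.950) and Lhx1 (0.939), and Onecut2 was closest to Onecut1 (0.917), Foxn4 (0.879) and Megf10 (0.877). Lhx1 was closest to Pax6 (0.976), Tfap2a (0.962) and Tfap2b (0.958). The closest listed gene was less alike for Prox1, where Nfia, Slc4a3 and Slc6a9 had 0.717, 0.644 and 0.609. Calb1 was closest to Eomes (0.887), Slc6a9 (0.885) and Gad1 (0.764), the last 2 being genes of amacrine cells. Calb1 correlated with Onecut1 at 0.066 and with Lhx1 at 0.36, and Prox1 with Calb1 at 0.49. These values mix the difference between genotypes with the spread within them.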

How the data were processed

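Whole-retina RNA-seq of 3 TKO and 3 DKO samples was analysed, grouped by the sample labels. The deposited values are raw counts of read pairs on gene symbols, without normalization. According to the methods of the study, reads were aligned to GRCm38 with STAR and counted with HTSeq, allowing several alignments for a read, whereas the submitters' processing notes name TopHat2 and featureCounts. The library kit is stranded, and the strand setting of the counting is not stated in the sources used here, so overlapping genes are less certain.

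Genes with a sum under 10 were removed, which left 16904. The fit was made in edgeR 4.0.16 under R 4.3.3 (TMM, quasi-likelihood F test, Benjamini-Hochberg adjustment over all genes tested), where the study used DESeq2. DESeq2 1.42.0, which also gave the mean normalized counts of the call rule, was an alternative, with other scalings, filters, dispersion estimates, a replicate block and each retina left out. The standard error (SE) was obtained from the F statistic, and the 95% interval uses the t distribution of the fit. No 2 replicates agreed within sampling noise (chi-square of 8.61 to 25.3 for each degree of freedom). The labels do not say whether the replicate numbers pair the retinae, and they were not taken as pairs.

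Coordinates and exon lengths are from a GENCODE annotation of GRCm38 that is not the release the study names. Promoters are from RefSeq GRCm38.p6. Genes were named by a rule: the 5 genes, Hells, Rb1 and Rbl1, both horizontal cell lists, at most 2 abundant genes of each other list and genes known to share cells with a member, and the 3 genes most alike to each member. Of the last, 1 gene is not reported here. Barhl2, Ebf3, Cabp5, Scgn and Grik1, and the words searched in the promoters, were chosen after their values were seen. The genes and lists were chosen with earlier results of these data known.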

Additional observations from a re-analysis of the deposited data

How the results depend on the processing

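The negative log2 fold changes of Lhx1, Onecut1 and Onecut2 were kept in each of 14 alternatives. Onecut1 passed an adjusted p of 0.05 with DESeq2 (log2 fold change -1.23), total counts only (-1.38), no filter beyond a sum of 1 (-1.24), filterByExpr (-1.24) and robust dispersion estimates (-1.24), and with each of these 1 of the 5 genes was called lower in place of 0. With 1 retina left out, from 0 to 2 of the 5 genes were called lower, and the log2 fold changes ran from -1.58 to -0.57 for Lhx1, from -1.83 to -0.98 for Onecut1, from -0.98 to -0.47 for Onecut2, from -0.041 to 0.097 for Prox1 and from 0.014 to 0.14 for Calb1. Scaling by total counts alone put the median of all genes at -0.17 in place of -0.011. There Prox1 was at -0.14, Calb1 at -0.063, Rbl1 at -0.036, Isl1 at -0.13, Atp1b1 at -0.043 and the median of the mature horizontal cell genes at -0.29, and with upper-quartile scaling Prox1 was at -0.012 and Isl1 at -0.0030. With 1 retina left out, the median of the mature genes ran from -0.36 (without TKO replicate 3) to 0.074 (without TKO replicate 1), Gja10 ran from -0.66 to 0.074, Isl1 ran from -0.097 to 0.16 and Rbl1 from -0.15 to 0.36, while called fate factors numbered from 1 to 2. Without a minimum fold change, 2 mature genes were called lower and 2 higher, and 2721 genes in all (1496 lower, 1225 higher), against 1074 (741 lower, 333 higher). With 1 retina left out, all calls ran from 471 (without DKO replicate 2) to 1500 (without TKO replicate 3), with 312 to 1024 lower and 121 to 476 higher, and numbered 700 and 476 in the fits that left out the first and second TKO retina and 500 in the fit that left out the first DKO retina. The cause of these changes was not tested.

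With the replicate number as a block (replicate block), 90 genes were called, 75 lower and 15 higher, and 0 of the fate factors in place of 1. Same-numbered retinae deviated together with correlations of 0.069, -0.045 and -0.18 across genes, and the numbers were not taken as pairs. Onecut1 was at -1.34 with the block (adjusted p = 0.0939 from edgeR). Counts as low as those of Onecut1, Gja10 and Ptf1a limit what these libraries can show.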

Other observations

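The genes targeted in both genotypes were also read. Counts cover whole genes and Chx10-Cre acts in only part of the progenitors, so the Rb1 counts do not measure its deletion. For Rb1 the mean was 748 ± 66.0 in the TKO retinae against 591 ± 23.5 normalized counts in the DKO retinae (SD, n = 3 each). The log2 difference was 0.34 (edgeR adjusted p = 0.0388), and the adjusted p exceeded 0.05 in 5 of the 6 fits that each left out 1 retina. Rbl1, the p107 gene, averaged 20.3 ± 7.02 in TKO and 18.6 ± 4.87 in DKO (edgeR adjusted p = 0.839).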
